A study of Mus musculus with 9 samples.

Results

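The change over time of the effect of lincRNA-p21 knockdown was read in mouse embryonic fibroblasts on their way to induced pluripotent stem cells. The measure was the difference between the lincRNA-p21 hairpin arm and the control arm on days 6, 9 and 12, gene by gene, and how that difference moved between day 6 and day 12. All 12541 genes with a mean signal of 20 or more over the 9 libraries were used, of 12550 in the deposited table. The fibroblasts were of strain C57Bl/6cJ, were transfected with c-Myc, Klf4, Sox2 and Oct4 on expression plasmids, and were grown in mouse embryonic stem cell medium with LIF. They also received a pretroSuper construct with a short hairpin RNA against lincRNA-p21, against hnRNP-K, or against luciferase, which has no target in these cells and served as control. RNA was taken with TRIzol as total RNA before sequencing. Each of the 3 arms has 1 library on each of the 3 days, each labelled as replicates that had been merged. Each target is represented by 1 hairpin arm, and the cells on these days are described as partially reprogrammed, a mixed population in bulk RNA. A lower value can therefore come from fewer cells of a type or from less RNA per cell, which cannot be told apart here.

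LincRNA-p21 is a long non-coding RNA made from the gene Trp53cor1, which p53 activates and which lies beside the cell cycle inhibitor gene Cdkn1a. It is known for binding the protein hnRNP-K and for restraining gene expression. In reprogramming, fibroblasts first lose mesenchymal genes, then gain epithelial genes, and turn on the endogenous pluripotency network last, which requires removal of H3K9 and CpG methylation from its promoters. Fast division favours the process, while p53 activity and senescence oppose it.

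The deposited values are a signal on a scale shared by all libraries, with column totals within 0.025% of each other. The number of reads behind a library is unknown. Differences were taken as log2(signal + 10), which understates the change of genes with low signal. A difference of 1 on this scale is 2-fold. The change of the difference was tested with limma in a model with a line over the days for each arm and a curve shared by the arms, with Benjamini-Hochberg adjustment over all 12541 genes at 0.05. Because replicates had been merged, the test measures how far single libraries departed from these lines, not the spread between replicate cultures. The fibroblast markers of the labelled cell type were present throughout: 44 of 45 were in the table, and their summed signal was 601600, 505700 and 445900 on days 6, 9 and 12 in the lincRNA-p21 arm, against 488700, 470800 and 526900 in the control arm. Of markers of other cells, 3 of 20 for macrophages, 6 of 15 for endothelium and 4 of 12 for adipocytes were in the table. The summed macrophage signal was 3284, 3250 and 3694 in the lincRNA-p21 arm, against 3276, 3830 and 3416 in the control arm.

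The targeted transcript stood lower than control on all 3 days, under its own hairpin and under that against hnRNP-K. Trp53cor1 (chr17:29057430-29079179, GRCm38) had a signal of 90.5, 122 and 97 on days 6, 9 and 12 in the lincRNA-p21 arm, against 286.5, 237 and 250 in the control arm. The Hnrnpk arm had 131, 137 and 119.5, a difference from control of -1.07 on day 6 and -1.01 on day 12. The lincRNA-p21 minus control difference stood at -1.56, -0.90 and -1.28 and moved by 0.28 (SE 0.35, limma adjusted p = 0.707) between day 6 and day 12. Its lowest control value lay well above its highest value under the hairpin. Hnrnpk, the gene of the binding partner, had a change of the difference of 0.26 (SE 0.33, limma adjusted p = 0.723). Cdkn1a, which encodes the p21 cell cycle inhibitor, had 14594, 11286.5 and 11176 in the lincRNA-p21 arm, against 12063.5, 11815 and 11815 in the control arm. Its difference moved by -0.35 (SE 0.24, limma adjusted p = 0.463).

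Few of the genes that differed by 2-fold on day 6 did so on day 12, though a larger share than over all genes. On day 6, 208 genes (1.66%) were at least 2-fold higher and 97 (0.773%) at least 2-fold lower in the lincRNA-p21 arm than in the control arm. Day 9 had 105 higher (0.837%) and 30 lower (0.239%), and day 12 had 151 higher (1.2%) and 34 lower (0.271%). The day 6 and day 12 sets share no library. Of the 208 genes higher on day 6, 21 (10.1%, beside 1.2% of all genes) were also 2-fold higher on day 12. These are 13.9% of the day 12 set. A further 75 of the 208 (36.1%) lay below 0 on day 12. Of the 97 genes lower on day 6, 4 (4.12%, beside 0.271% of all genes) were also 2-fold lower on day 12, which is 11.8% of the lower day 12 set. Genes chosen as extreme on 1 day in single libraries lie closer to 0 on another day in either direction of time: the 208 had a median of 1.26 on day 6 and 0.16 on day 12, and the 151 higher on day 12 had 1.33 on that day and 0.17 on day 6. Days 9 and 12 shared more: 50 of the 151 genes higher on day 12 (33.1%) were already 2-fold higher on day 9. These are counts of single libraries with no test.

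Between day 6 and day 12 the difference moved up by at least 2-fold in 325 genes (2.59%) and down by at least 2-fold in 295 genes (2.35%). The median over all genes was -0.01, with a median SE of 0.24. No gene passed limma at an adjusted p of 0.05 in either direction (0 higher, 0 lower, lowest adjusted p = 0.153), while 2107 genes (16.8%) had an unadjusted p under 0.05. That count of 0 depends on the libraries in the fit. With all libraries of the lincRNA-p21 arm kept, leaving out 1 Hnrnpk library gave 389 to 404 genes higher and 326 to 333 lower. Leaving out the control library of day 9 gave 303 higher and 269 lower, and leaving out that of day 12 gave 229 and 255, while without the control library of day 6 or any single lincRNA-p21 library there were 0. The fit of the 6 lincRNA-p21 and control libraries alone gave 392 higher and 325 lower. It had 1 residual and 21.65 prior degrees of freedom, against 2 and 5.73 with all 9 libraries. The fits without 1 Hnrnpk library had 1 residual and 21.14 to 21.72 prior degrees of freedom. The 2-fold counts also moved: to 1291 higher and 1359 lower without the control library of day 12, to 716 and 732 without the lincRNA-p21 library of day 12, and for the lower genes to 521 without the lincRNA-p21 library of day 6. Of the 91 genes named by rule, 80 had a change that moved by over 1.5 times or took the other sign without 1 library, and for 74 of the 91 the lowest or highest value was that without a control library.

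Among these chosen genes the first step was more often the larger. In 287 of the 325 genes (88.3%) and 255 of the 295 (86.4%) both steps, day 6 to 9 and day 9 to 12, went the same way. The first step was the larger in 246 of the 325 and 224 of the 295. The genes were chosen by the sum of both steps, which partly fixes that the steps agree. The size of each step rests on single libraries and was not tested. In the 325 genes the median difference was -0.51, 0.32 and 0.72 on days 6, 9 and 12, a course that the choice of genes by their change partly fixes. In the 295 genes it was 0.95, 0.07 and -0.32, with the same limit. By size alone, 75 of the 325 genes gained a difference they did not have on day 6, 40 lost one, and 65 crossed from one side of 0 to the other. Among the 295 genes, 11 gained, 116 lost and 41 crossed a difference. A difference counted as gained or lost where it was at least 2-fold on the one day and under 0.5 on the other, and as crossed where it was at least 0.5 on opposite sides.

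**Figure D1:**
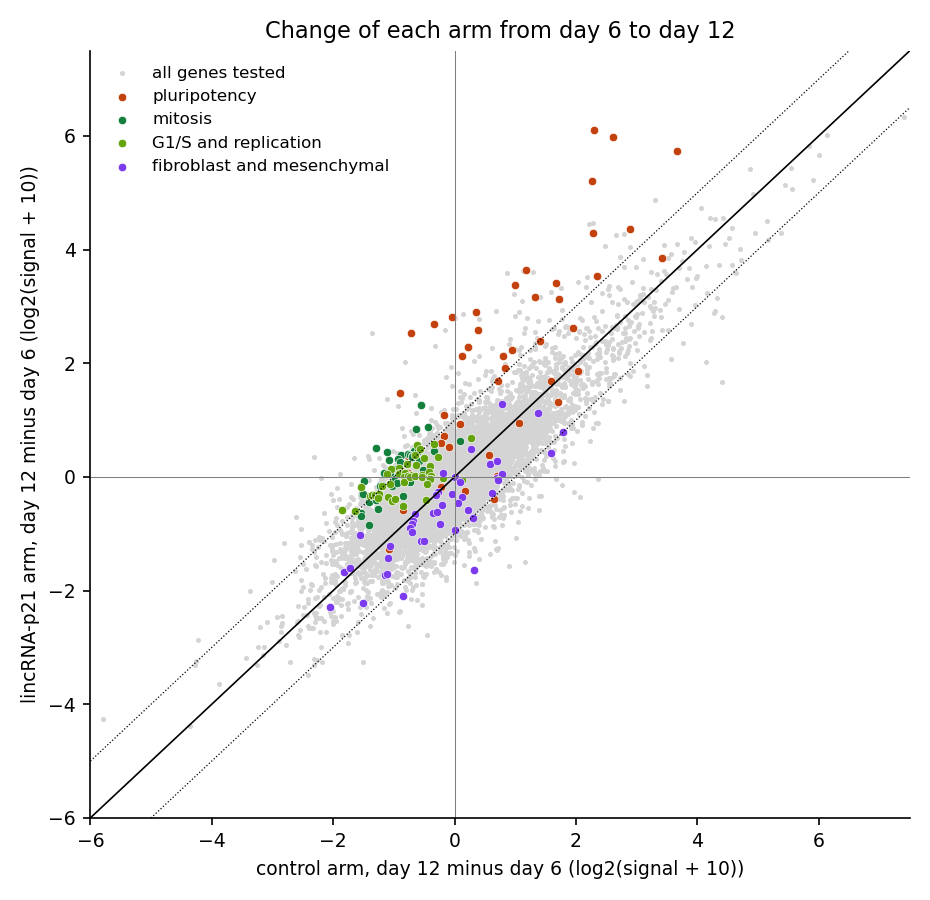
Own change of each arm from day 6 to day 12 in log2(signal + 10), the lincRNA-p21 arm on the vertical axis and the control arm on the horizontal axis, 1 point per gene with 4 gene lists coloured. The solid line marks equal change and the dotted lines a 2-fold change of the difference, past which lie 325 genes above and 295 below; pluripotency genes sit above the line at high values of the lincRNA-p21 arm, and mitosis genes sit to the left at control changes below 0.

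Separating the arms showed which of them carried the change. Each arm changed widely by itself: in the lincRNA-p21 arm 2246 genes rose (17.9%) and 2586 fell (20.6%), and in the control arm 2504 rose (20%) and 2813 fell (22.4%) between day 6 and day 12 (limma adjusted p under 0.05). These counts rest on single end libraries. Without the lincRNA-p21 library of day 6, 12 genes rose and 1 fell in that arm, and without that of day 12, 6 rose and 0 fell. Without the control library of day 6, 405 rose and 164 fell in the control arm, and without that of day 12, 1415 and 1398. With a straight line per arm and no shared curve, the counts were 72 and 17 in the lincRNA-p21 arm and 722 and 529 in the control arm.

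An arm was then taken as flat where its own change was under 0.5. Of the 325 genes whose difference went up, 122 (37.5%) moved in the control arm and were flat in the lincRNA-p21 arm, and 74 (22.8%) moved in the lincRNA-p21 arm and were flat in the control arm. In 67 both arms moved the same way with the larger move in the lincRNA-p21 arm, in 38 with the larger move in the control arm, and in 24 the arms went opposite ways. Of the 295 genes whose difference went down, 96 (32.5%) moved in the lincRNA-p21 arm alone and 82 (27.8%) in the control arm alone. A further 37 and 44 moved the same way in both, and 36 went opposite ways. So the control arm was the more frequent mover among genes whose difference went up, and the lincRNA-p21 arm among those whose difference went down, although at a 1.5-fold limit the genes that went down split nearly evenly, with 340 moving in the lincRNA-p21 arm alone and 345 in the control arm alone.

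**Figure D2:**
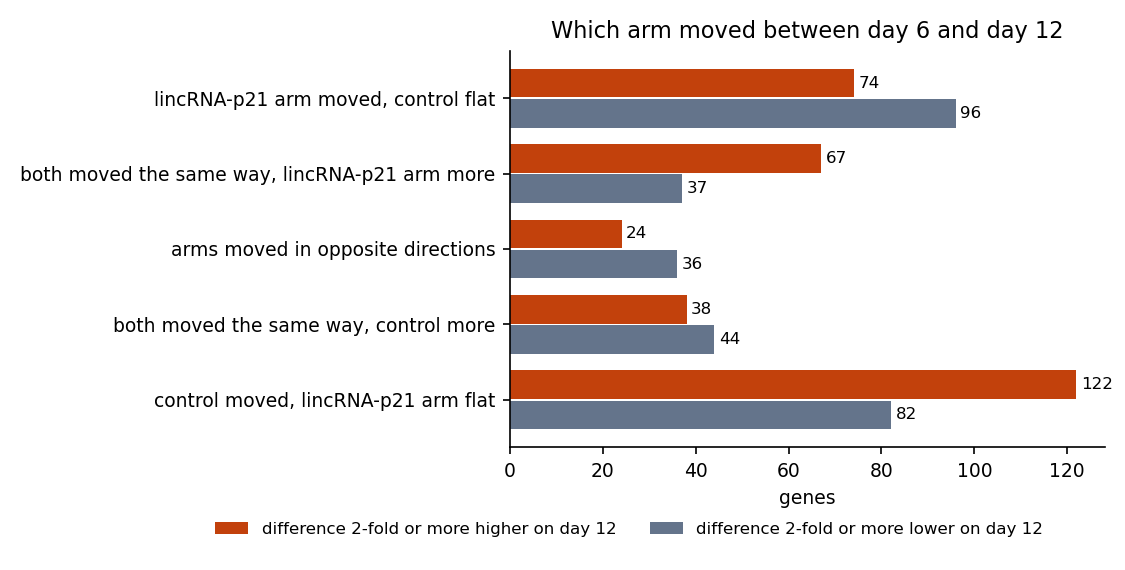
Number of genes whose lincRNA-p21 minus control difference was at least 2-fold higher or lower on day 12 than on day 6, split by which arm moved by 0.5 or more. Bars start at 0; the longest is the 122 genes with a difference that went up where the control arm moved and the lincRNA-p21 arm was flat.

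By their median, pluripotency genes stood higher under the lincRNA-p21 hairpin on days 9 and 12, and the lincRNA-p21 arm moved more. Their summed signal did not stand higher. It was 61030, 106400 and 134500 on days 6, 9 and 12 in the lincRNA-p21 arm, against 75680, 106900 and 157700 in the control arm. Of 54 genes on the list 47 were tested, and 36 of them rose and 2 fell between day 6 and day 12 in the lincRNA-p21 arm, against 21 that rose and 3 that fell in the control arm (limma adjusted p under 0.05). Over all genes 17.9% rose and 20.6% fell in the lincRNA-p21 arm, and 20% and 22.4% in the control arm. The median own change of the pluripotency genes was 2.13 in the lincRNA-p21 arm and 0.69 in the control arm. The median difference between the arms was -0.04, 0.55 and 1.33 on days 6, 9 and 12, beside 0.02, 0.02 and 0.00 over all genes. The change of the difference was at least 2-fold up in 27 of the 47 and down in 1, beside 2.59% and 2.35% of all genes. Its median over the list was 1.19. An unadjusted p under 0.05 was found for 32, beside 16.8% of all genes, but none passed adjustment. Of the 27, 15 moved up in both arms and further in the lincRNA-p21 arm, 8 moved in the lincRNA-p21 arm alone, 2 moved in opposite directions and 2 moved in the control arm alone. The list median was 0.66 without the lincRNA-p21 library of day 12, 1.88 without that of day 6 and 1.79 without the control library of day 12.

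Both genes of the list with the largest change were near 0 in both arms on day 6. Dppa5a (chr9:78367052-78368177), an RNA-binding protein gene of pluripotent cells, had a signal of 0.5, 63.5 and 715.5 on days 6, 9 and 12 in the lincRNA-p21 arm, against 1, 10 and 44 in the control arm. Lin28a (chr4:134003330-134018841), which blocks maturation of let-7 microRNAs, had 1, 159.5 and 685 in the lincRNA-p21 arm, against 1, 21 and 57 in the control arm. Both genes rose in both arms: Dppa5a by 6.11 and Lin28a by 5.98 in the lincRNA-p21 arm, against 2.30 and 2.61 in the control arm (limma adjusted p = 0.000752 and 0.000753, against 0.03 and 0.0177). The change of the difference was 3.82 (SE 0.97, limma adjusted p = 0.164) for Dppa5a and 3.38 (SE 0.96, limma adjusted p = 0.181) for Lin28a. Without the control library of day 6 these were 1.88 and 0.49, and without that of day 12 they were 5.75 and 6.26. Utf1, which encodes a chromatin-bound protein of embryonic stem cells, had 7.5, 198.5 and 635 in the lincRNA-p21 arm, against 3, 17 and 52.5 in the control arm. Its change of 2.94 (SE 1.03, limma adjusted p = 0.236) became -0.47 without the control library of day 6.

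A further set, with Foxh1, Vrtn and Mdk from outside the list, moved mostly in the lincRNA-p21 arm. Nanog (chr6:122707489-122714633), a core transcription factor of the pluripotent state, had 121, 351 and 629 in the lincRNA-p21 arm, against 179.5, 238 and 211 in the control arm. It rose by 2.29 under the lincRNA-p21 hairpin (limma adjusted p = 0.000198) and by a non-significant 0.22 in the control arm (limma adjusted p = 0.366). Its difference was -0.53, 0.54 and 1.53 on days 6, 9 and 12, a change of 2.06 (SE 0.26, limma adjusted p = 0.153). The order of the arms was thus opposite on the first and the last day. Foxd3, a forkhead factor of embryonic stem cells and neural crest, had 6, 30.5 and 93 in the lincRNA-p21 arm, against 6.5, 6 and 3 in the control arm, a change of 3.03 (SE 0.59, limma adjusted p = 0.153). Mycn, the N-Myc gene, had 50, 195 and 436.5, against 24, 33.5 and 33.5, a change of 2.54 (SE 0.60, limma adjusted p = 0.155). Foxh1, a Nodal-pathway transcription factor, and Vrtn were at 0 in the lincRNA-p21 arm on day 6 and at 110 and 63 on day 12, against 10 and 1 on day 12 in the control arm, where Foxh1 moved by 0.86 (limma adjusted p = 0.171). Mdk, the growth factor midkine, had 67, 209.5 and 517, against 55.5, 84.5 and 76.5, a change of 2.37 (SE 0.44, limma adjusted p = 0.153).

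The 4 reprogramming factors were taken as a list of their own, and in 0 of them did the difference move by 2-fold. The reprogramming factor Pou5f1 (Oct4) rose in both arms, by 1.31 under the lincRNA-p21 hairpin (limma adjusted p = 0.0186) and 1.70 in the control arm (limma adjusted p = 0.00611), and its difference moved by -0.39 (SE 0.48, limma adjusted p = 0.705). Sox2 had 15392.5, 14212.5 and 13595 in the lincRNA-p21 arm, against 19009, 17713 and 16340 in the control arm, a change of 0.04 (SE 0.23). Klf4 had 42046.5, 39217 and 39217 in the lincRNA-p21 arm, against 56808.5, 39217 and 39217 in the control arm. For Klf4 the change was 0.43 (SE 0.29, limma adjusted p = 0.471). Myc had 26881, 21438.5 and 24938 in the lincRNA-p21 arm, against 56808.5, 26978 and 32439 in the control arm, where it fell by 0.81 (limma adjusted p = 0.0215). Its difference moved by 0.70 (SE 0.31, limma adjusted p = 0.308). Myc and Klf4 had the same value of 56808.5 in the control library of day 6. Values this high recur between genes and libraries, so the size of moves of single factors is uncertain. All 4 factors were also carried by plasmids, and the signal does not separate plasmid from endogenous transcripts.

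**Figure D3:**
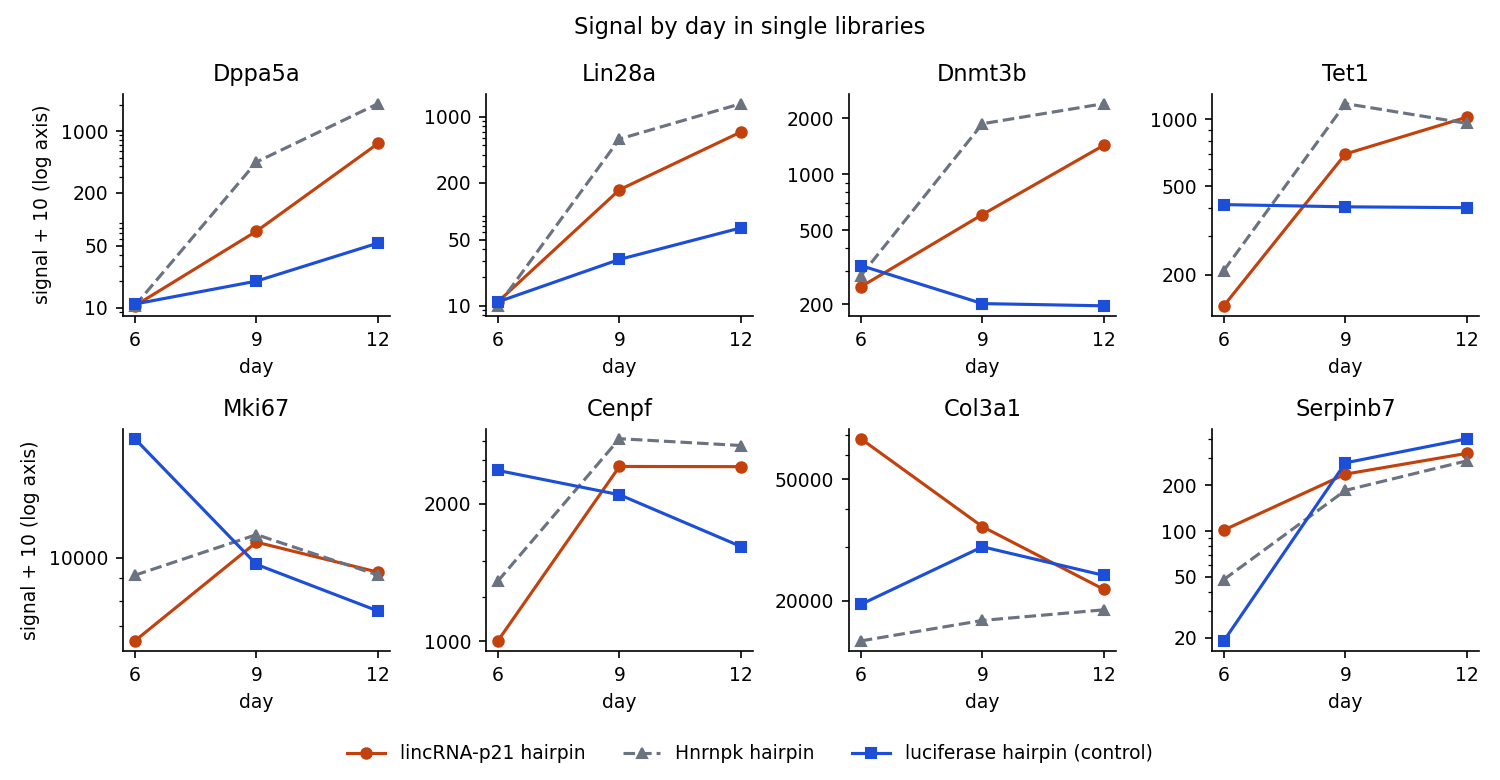
Signal + 10 on a log axis against day for 8 genes, 1 point per library, with the lincRNA-p21, Hnrnpk and luciferase (control) hairpin arms as separate lines. Dppa5a, Lin28a, Dnmt3b and Tet1 end at 685 to 1428 in the lincRNA-p21 arm and at 44 to 391 in the control arm, while for Mki67, Cenpf, Col3a1 and Serpinb7 the widest gap between these arms is on day 6.

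Genes of the methylation machinery were of interest because the study concerns H3K9me3 and CpG methylation at pluripotency promoters. Of 32 tested, 10 rose and 3 fell in the lincRNA-p21 arm, against 2 that rose and 5 that fell in the control arm (limma adjusted p under 0.05). Over all genes these shares were 17.9% and 20.6% in the lincRNA-p21 arm, and 20% and 22.4% in the control arm. The median change of the difference on the list was 0.21, with 6 at least 2-fold up and 0 down, beside 2.59% and 2.35% of all genes. Tet1 (chr10:62804570-62908996), an enzyme that oxidises methylated cytosine, had 135, 689.5 and 1015.5 in the lincRNA-p21 arm, against 404, 394.5 and 391 in the control arm. It rose by 2.82 under the lincRNA-p21 hairpin (limma adjusted p = 0.00268) and was level in the control arm at -0.05 (limma adjusted p = 0.943). Its difference was -1.51, 0.79 and 1.35 on days 6, 9 and 12, a change of 2.87 (SE 0.62, limma adjusted p = 0.155), which was 0.59 without the control library of day 6 and 5.14 without that of day 12. Tet2, a related enzyme, had 1853, 3876 and 4082 in the lincRNA-p21 arm, against 4977, 4872 and 4262.5 in the control arm, so a day 6 deficit of -1.42 closed to -0.06. Dnmt3b (chr2:153649450-153687730), a de novo DNA methyltransferase, had 238, 598 and 1428, against 313, 191.5 and 186, a change of 3.26 (SE 0.68, limma adjusted p = 0.155), which was 1.41 and 5.10 without the same libraries. Dnmt3l, the cofactor of that enzyme, stood at 114 on day 12 in the lincRNA-p21 arm and at 10 in the control arm. Dnmt3b and Dnmt3l are on the pluripotency list as well. The median of the methylation list was -0.10 without the control library of day 6 and 0.58 without that of day 12.

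Promoters of 3 genes that ended far apart are shown because methylated CpG at such promoters is the subject of the study, and CpG dinucleotides are in capitals. Each run is 300 bases, 250 before and 50 after the transcription start, from RefSeq (GRCm38.p6), written along the gene. The RefSeq start used for Tet1 lies within the GENCODE gene and not at its 5′ end.
Lin28a promoter, chr4:134018767-134019066, minus strand: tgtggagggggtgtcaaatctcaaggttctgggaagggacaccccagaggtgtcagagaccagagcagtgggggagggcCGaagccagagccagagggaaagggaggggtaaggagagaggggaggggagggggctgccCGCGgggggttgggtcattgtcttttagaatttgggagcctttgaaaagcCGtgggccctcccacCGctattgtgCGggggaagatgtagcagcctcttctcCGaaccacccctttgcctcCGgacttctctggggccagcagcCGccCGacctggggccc
Dnmt3b promoter, chr2:153649199-153649498, plus strand: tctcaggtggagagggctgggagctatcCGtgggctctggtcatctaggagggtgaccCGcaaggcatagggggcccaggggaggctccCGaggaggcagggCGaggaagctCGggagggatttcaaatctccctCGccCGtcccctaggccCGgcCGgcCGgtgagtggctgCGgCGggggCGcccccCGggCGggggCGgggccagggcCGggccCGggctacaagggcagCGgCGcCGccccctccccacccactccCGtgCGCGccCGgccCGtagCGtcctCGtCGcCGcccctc
Tet1 promoter, chr10:62887275-62887574, minus strand: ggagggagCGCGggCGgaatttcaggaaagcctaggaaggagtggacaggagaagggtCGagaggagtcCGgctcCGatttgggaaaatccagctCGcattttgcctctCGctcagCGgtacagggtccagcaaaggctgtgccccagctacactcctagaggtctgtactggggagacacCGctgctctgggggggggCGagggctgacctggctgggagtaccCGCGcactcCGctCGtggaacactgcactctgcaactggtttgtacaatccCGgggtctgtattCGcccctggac
These windows hold 10, 30 and 17 CpG dinucleotides. The pluripotency promoters matched in the table (33 of 47) had a median of 11 CpG, against 21 over the 9267 matched promoters of tested genes. The GC box GGGCGG was present on either strand in 19 of the 33 (57.6%), against 66.2% of tested genes, and the octamer ATGCAAAT in 1 (3.03%), against 1.42%. Methylation itself was not measured in these libraries.

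Cell division genes had a difference that moved up while they fell in the control arm and stayed near level in the lincRNA-p21 arm. All 38 mitosis genes and all 48 G1/S and replication genes on the lists were tested. In the control arm 34 of 38 mitosis genes fell and 0 rose, whereas in the lincRNA-p21 arm 5 rose and 5 fell (limma adjusted p under 0.05). Over all genes 22.4% fell and 20% rose in the control arm, and 20.6% fell and 17.9% rose in the lincRNA-p21 arm. The median own change of the mitosis genes was 0.13 in the lincRNA-p21 arm and -0.94 in the control arm. Of the G1/S genes 3 rose and 1 fell in the lincRNA-p21 arm, against 0 that rose and 34 that fell in the control arm, with medians of 0.00 and -0.77. The median difference of the mitosis genes was -0.34, 0.31 and 0.61 on days 6, 9 and 12, and that of the G1/S genes -0.22, 0.26 and 0.54. On day 6, therefore, these genes stood lower under the lincRNA-p21 hairpin, and on day 12 higher.

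The change of the difference lay above 0 in all 38 mitosis genes and in 47 of 48 G1/S genes. It was at least 2-fold up in 22 and 13 of them, beside 2.59% of all genes. None passed adjustment, and 37 and 36 had an unadjusted p under 0.05, beside 16.8% of all genes. Of the 35 genes that moved at least 2-fold, 28 moved in the control arm and were flat in the lincRNA-p21 arm. Without the control library of day 6 the median change was 0.56 for mitosis, beside 1.07 with all libraries, and 0.36 for G1/S, beside 0.81. Without the control library of day 12 they were 1.65 and 1.30.

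Mki67 (chr7:135689784-135716361), the proliferation antigen Ki-67, had 6483, 10848.5 and 9275 on days 6, 9 and 12 in the lincRNA-p21 arm, against 18599, 9660 and 7575.5 in the control arm. It fell by 1.30 in the control arm (limma adjusted p = 0.00894) and stood 0.52 higher on day 12 under the lincRNA-p21 hairpin (limma adjusted p = 0.182), a change of the difference of 1.81 (SE 0.40, limma adjusted p = 0.155). That change was 0.43 without the control library of day 6 and 3.19 without that of day 12. The control value of day 6 stood apart from the other 5. Cenpf (chr1:189640606-189688086), a kinetochore protein gene, had 990.5, 2405.5 and 2403 in the lincRNA-p21 arm, against 2357.5, 2084 and 1601.5 in the control arm. It rose by 1.27 under the lincRNA-p21 hairpin (limma adjusted p = 0.00356), and its difference moved by 1.83 (SE 0.30, limma adjusted p = 0.153), or by 0.85 and 2.81 without the control library of day 6 or 12. Here both arms took part, the lincRNA-p21 arm more. Top2a, the topoisomerase that untangles chromosomes, rose by 0.84 under the lincRNA-p21 hairpin (limma adjusted p = 0.0132) and fell by 0.63 in the control arm (limma adjusted p = 0.0345). Rrm2, a subunit of ribonucleotide reductase, had 5152, 6260 and 4537, against 7054, 4001 and 2415, a change of 1.36 (SE 0.32, limma adjusted p = 0.155). Ccna2, the S-phase cyclin A2, had 3702.5, 2931 and 2470, against 5726, 2330.5 and 1576, and Mcm5, part of the replicative helicase, had 3949, 4733 and 4360.5, against 4415, 3344 and 2126.5.

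Beyond the lists, the genes with the largest change that moved in the control arm alone included Bex2 (chrX:136066564-136068236), with 250.5, 291 and 258.5 in the lincRNA-p21 arm, against 223.5, 142.5 and 53 in the control arm. It fell by 1.89 in the control arm (limma adjusted p = 0.000434). Nnat, the imprinted neuronatin gene, had 210, 191 and 208, against 324.5, 128 and 63. Fbxo5, an inhibitor of the anaphase-promoting complex, had 455, 589.5 and 591, against 720, 423 and 260.5. In each of the 3 the lincRNA-p21 arm was nearly level while the control arm went down on both steps.

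**Figure D4:**
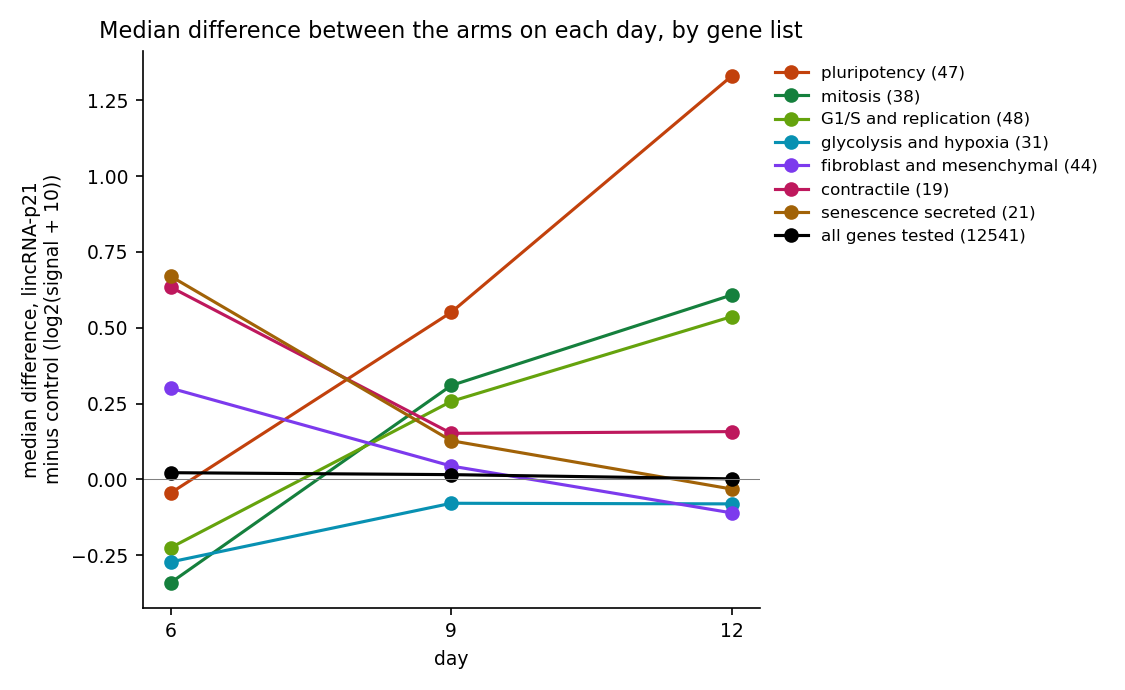
Median difference between the lincRNA-p21 and control arms in log2(signal + 10) on days 6, 9 and 12 for 7 gene lists and all 12541 genes, with the number of genes tested in the legend. Pluripotency, mitosis and G1/S genes climb through 0 to 1.33, 0.61 and 0.54 on day 12, contractile and senescence genes begin at 0.63 and 0.67 and come down towards 0, and all genes stay near 0.

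Promoters of both division genes with the largest list change are shown for comparison, in the same layout.
Cenpf promoter, chr1:189688037-189688336, minus strand: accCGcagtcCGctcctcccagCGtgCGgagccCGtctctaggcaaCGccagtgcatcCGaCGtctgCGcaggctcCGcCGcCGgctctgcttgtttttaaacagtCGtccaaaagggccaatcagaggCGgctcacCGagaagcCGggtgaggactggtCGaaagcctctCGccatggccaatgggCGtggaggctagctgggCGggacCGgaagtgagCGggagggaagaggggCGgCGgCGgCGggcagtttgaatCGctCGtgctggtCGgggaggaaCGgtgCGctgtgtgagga
Mki67 promoter, chr7:135716330-135716629, minus strand: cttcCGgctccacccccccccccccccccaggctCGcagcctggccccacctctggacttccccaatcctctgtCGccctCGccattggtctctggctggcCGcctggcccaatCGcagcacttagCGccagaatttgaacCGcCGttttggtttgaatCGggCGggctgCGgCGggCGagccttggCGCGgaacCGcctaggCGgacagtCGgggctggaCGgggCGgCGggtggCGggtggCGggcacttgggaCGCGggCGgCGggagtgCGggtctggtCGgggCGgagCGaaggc
They hold 31 and 32 CpG dinucleotides. The motif TTTGAA, the core of the cell cycle genes homology region bound by regulators of late cell cycle genes, was looked for on either strand after the change of the mitosis list was known. It is present in both windows and in 23 of the 32 mitosis promoters matched (71.9%), against 11.5% of tested genes, 13.2% of G1/S promoters and 21.2% of pluripotency promoters. The Lin28a and Dnmt3b windows shown above also hold it, and the Tet1 window does not. GGGCGG was present in 26 of the 32 (81.2%) and ATGCAAAT in 0. These are matches of letters within the window and not measured sites.

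By their medians, mesenchymal, contractile and secreted senescence genes showed the reverse course: higher under the lincRNA-p21 hairpin on day 6, and close to control from day 9. Of 44 fibroblast and mesenchymal genes, 2 rose and 20 fell in the lincRNA-p21 arm, against 8 that rose and 14 that fell in the control arm (limma adjusted p under 0.05). Over all genes 17.9% rose and 20.6% fell in the lincRNA-p21 arm, and 20% and 22.4% in the control arm. The median difference of the fibroblast and mesenchymal genes was 0.30, 0.04 and -0.11 on days 6, 9 and 12. The change of their difference was at least 2-fold down in 5 and up in 0, with a median of -0.34. Over all genes the difference moved at least 2-fold down in 2.35% and up in 2.59%, shares that also stand beside the next 2-fold counts. For 19 contractile genes the median difference was 0.63, 0.15 and 0.16, with 1 change at least 2-fold up and 3 down. For 21 senescence-associated secreted genes it was 0.67, 0.13 and -0.03, with 1 up and 4 down. These medians turn over without the control library of day 6, to 0.14, 0.35 and 0.27, and the fibroblast median was 0.12 without the lincRNA-p21 library of day 12.

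Col3a1 (chr1:45311538-45349706), a collagen of fibroblast matrix, had 67808.5, 34933 and 21757.5 in the lincRNA-p21 arm, against 19438.5, 30018 and 24187.5 in the control arm. It fell by 1.64 under the lincRNA-p21 hairpin (limma adjusted p = 0.00246), and its difference moved by -1.96 (SE 0.35, limma adjusted p = 0.153), or by -0.93 and -2.98 without the control library of day 6 or 12. The day 6 value under the hairpin was the highest of the 9. Fbln5, an elastic fibre protein gene, had 18432, 7056.5 and 4308, against 7121, 5310.5 and 3957, and fell in both arms, by 2.10 and 0.85 (limma adjusted p = 0.00108 and 0.0331). Ctgf, a matrix-linked growth factor gene, differed in kind: it rose by 1.59 in the control arm (limma adjusted p = 0.00207) and stood 0.43 higher under the lincRNA-p21 hairpin (limma adjusted p = 0.195). Acta2, smooth muscle actin, had 13303, 5170 and 4053 in the lincRNA-p21 arm, against 4777, 4504.5 and 3431 in the control arm. It fell by 1.71 under the lincRNA-p21 hairpin (limma adjusted p = 0.00494) and stood 0.48 lower on day 12 in the control arm (limma adjusted p = 0.249).

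Among secreted genes Ccl7, a chemokine, had 755, 552 and 464.5, against 374.5, 504.5 and 516.5, a change of -1.14 (SE 0.25, limma adjusted p = 0.155). Igfbp5, an IGF-binding protein gene, ran against its list, with 613.5, 664 and 465.5 in the lincRNA-p21 arm, against 715.5, 348 and 183 in the control arm. It fell by 1.91 in the control arm (limma adjusted p = 0.000482), and its difference moved by 1.52 (SE 0.28, limma adjusted p = 0.153).

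Most epithelial, keratinocyte and glycolysis genes rose in both arms (limma adjusted p under 0.05). Over all genes 17.9% rose in the lincRNA-p21 arm and 20% in the control arm. Of 38 epithelial genes 34 rose in the lincRNA-p21 arm and 35 in the control arm, with 0 falling in either, by a median of 2.55 and 2.25. The median change of the difference was 0.14. Beside 2.59% of all genes, 2 of the 38 were at least 2-fold up. These were Cldn6, an embryonic tight junction gene, with 1, 43.5 and 233.5, against 2, 25.5 and 48, and Krt18, a keratin of simple epithelia, with 22, 184.5 and 928.5, against 34, 221 and 422. Of 25 keratinocyte genes 20 rose in the lincRNA-p21 arm and 21 in the control arm, and the median change of the difference was -0.44. The change lay below 0 in 18 of the 25, and 8 had an unadjusted p under 0.05, beside 16.8% of all genes. Without 1 library that median ran between -0.64 and -0.33. Krt6a, a keratin of stressed epidermis, was the 1 member with a change of at least 2-fold, at -1.10 (SE 0.25, limma adjusted p = 0.155). It rose in both arms, by 4.29 and 5.39 (limma adjusted p = 1.41e-05 and 3.9e-06).

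Of 31 glycolysis and hypoxia genes 25 rose in each arm, beside 17.9% of all genes in the lincRNA-p21 arm and 20% in the control arm. The median change of the difference was 0.31, with 4 at least 2-fold up, beside 2.59% of all genes. The median difference of the list was -0.27 on day 6. Aldoc, a glycolytic aldolase, had 357.5, 1934.5 and 3738, against 1054.5, 3128.5 and 4747.5, so a day 6 difference of -1.53 shrank to -0.34. Pdk1, which diverts pyruvate from mitochondria, had 1571.5, 5172 and 6992, against 3791, 6852.5 and 8050. Eno1, an enolase, gained a difference instead, with 44890, 85013 and 118715, against 48100.5, 48100.5 and 51311; the last value under the hairpin is the maximum shared by all columns. The list median was -0.09 without the control library of day 6. Among 40 p53 targets 12 rose and 8 fell in the lincRNA-p21 arm, against 14 and 5 in the control arm, beside 17.9% and 20.6%, and 20% and 22.4%, of all genes. None of the 40 changed its difference by 2-fold, beside 2.59% up and 2.35% down over all genes, and the median was -0.12. The list median of the difference was 0.24, 0.05 and 0.09 on days 6, 9 and 12.

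**Figure D5:**
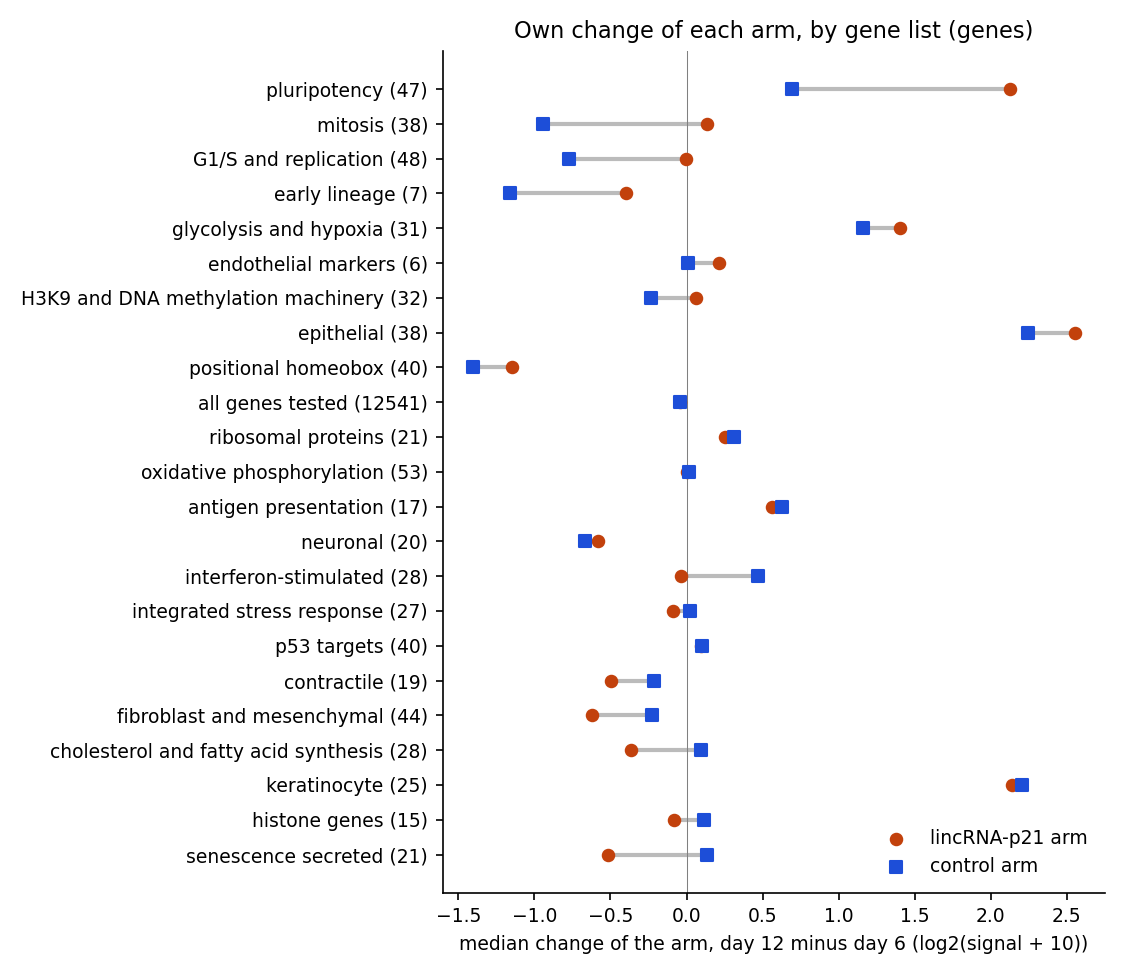
Median own change from day 6 to day 12, in log2(signal + 10), of the lincRNA-p21 arm (circles) and the control arm (squares) by gene list and over all genes tested. The small lists of reprogramming factors, macrophage markers and adipocyte markers are not drawn. Rows are ordered by the median change of the difference, with the number of genes tested in brackets. Pluripotency genes are set apart by the lincRNA-p21 arm at 2.13, and mitosis and G1/S genes by the control arm at -0.94 and -0.77, while epithelial genes lie at 2.55 and 2.25.

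Outside the lists, the genes whose difference went down furthest on both steps were Serpinb7, Pmch, Prl3d3, Pam, Slc5a8, Lgsn, Hbb-y, Lrrc73, Prl2c3 and Wnt4. Serpinb7 (chr1:107399655-107452689), a serine protease inhibitor gene of epithelia, had 91.5, 226.5 and 314 in the lincRNA-p21 arm, against 9, 270.5 and 394 in the control arm. It rose in both arms, by 1.68 and 4.41 (limma adjusted p = 0.0214 and 0.000434), and its difference moved by -2.74 (SE 0.63, limma adjusted p = 0.155). Without the control library of day 6 it moved by -0.41 and without that of day 12 by -5.06. Pam (chr1:97795114-98095646), which amidates peptide hormones, had 32209, 18954 and 25319.5, against 10833, 23636.5 and 45281, a change of -2.41 (SE 0.43, limma adjusted p = 0.153), or -0.92 and -3.90 without these libraries. Slc5a8, a monocarboxylate transporter gene, was level in the lincRNA-p21 arm at 110, 82 and 107, against 47, 110 and 283 in the control arm. Both Pam and Slc5a8 rose in the control arm, by 2.06 and 2.36 (limma adjusted p = 0.00185 and 0.000448). In Lgsn, a lens gene, the lincRNA-p21 arm was the mover: 241.5, 93.5 and 26.5, against 110, 83.5 and 78. Wnt4, a Wnt ligand gene, had 342.5, 173 and 158, against 99.5, 131.5 and 211, falling by 1.07 under the lincRNA-p21 hairpin (limma adjusted p = 0.00747) and rising by 1.01 in the control arm (limma adjusted p = 0.00821). Prl3d3 and Prl2c3 belong to a family of near-identical placental prolactin genes, between which reads can be split, so their values are uncertain.

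The line of the lincRNA-p21 arm was also set against that of the Hnrnpk arm, in the same fit, in which the control libraries still shape the shared curve and spread. By limma, 0 genes passed higher and 0 lower between the lines of the lincRNA-p21 and Hnrnpk arms, with 1815 (14.5%) at an unadjusted p under 0.05, and 189 genes (1.51%) were at least 2-fold higher and 226 (1.8%) at least 2-fold lower. Leaving out 1 library changed the called counts to at most 155 higher and 158 lower, without the Hnrnpk library of day 9, and to between 2 and 4 higher and 11 and 12 lower without 1 control library. The Hnrnpk arm itself had 2433 genes that rose (19.4%) and 2818 that fell (22.5%) between day 6 and day 12. Of the 47 pluripotency genes 39 rose and 3 fell in it, with a median own change of 2.36. Of the 38 mitosis genes 17 rose and 1 fell there, with a median of 0.48. Dppa5a had 0.5, 437 and 2037.5, Lin28a 0, 574 and 1374 and Dnmt3b 274.5, 1864.5 and 2395.5 in that arm. Mki67 was level in it at 9130, 11284 and 9136, and Cenpf had 1343, 2769 and 2675. For Col3a1 the Hnrnpk arm stood at 14760, 17227.5 and 18665, without the high day 6 value of the lincRNA-p21 arm. The difference between the lines of the 2 knockdown arms was -1.50 for Dppa5a (limma adjusted p = 0.507), 0.52 for Mki67 (limma adjusted p = 0.581) and -1.98 for Col3a1 (limma adjusted p = 0.241).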

How the data were processed

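Per the labels, total RNA of reprogramming mouse fibroblasts was sequenced, and each library stands for merged replicates. The authors deposited 1 normalized signal table; the scaling was not given in the sources used here. RSEM 1.2.12, Bowtie 1.0.1 and build mm10 are named per the submitters' processing notes, with no roles. Per the deposited signal values, 62.8% are whole, the others end in 0.5, and all columns share a maximum of 118715, so no count test was used and depth is unknown. There were 0 columns of no library.

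The deposited values had 10 added before log2 was taken. Genes with a mean of 20 or more (12541 of 12550) were tested in R 4.3.3 with limma 3.58.1: 7 terms (arms, a curve shared over days, a line per arm), 2 residual, 5.73 prior and 7.73 total degrees of freedom, trended moderation and Benjamini-Hochberg adjustment at 0.05. The genes nearest the filter had means of 20.2, 20.4 and 20.6 (Trp73, U90926 and Shank2, inside) and 18.7, 19.6 and 19.9 (Neto1, Synb and Rpl9-ps6, outside). The scripts were tested on simulated data.

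The members and the 25 gene lists were chosen with earlier results of these data known. Named genes (91, with 1 gene the rule named not reported here) were the hairpin targets and Cdkn1a; since fewer than 5 genes passed, the 10 each way with the largest change that moved the same way on both steps; up to 4 each way per class by which arm moved, with a mean of 100 or more; and up to 4 per list described. Other members named in sentences on lists were chosen after their values were seen. Genes named by clone or model number, small RNAs, pseudogenes and the 23 symbols shared by several entries were not named. Coordinates of genes come from GENCODE M21, in which 12470 gene identifiers were found. Strand use in counting: not given in the sources used here. Alternatives varied the pseudocount, filter, time term, libraries, centring, moderation and class limits.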

Additional observations from a re-analysis of the deposited data

Results flagged for a closer look

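Among the 91 named genes, 18 were picked out here because the lincRNA-p21 minus control difference stood on opposite sides of 0 on days 6 and 12, by at least 0.5 (log2 of signal + 10) on each. Each day has 1 library per arm, so the crossing was not tested by itself, and the limma test of the change passed for none of them. All but the hairpin targets and Cdkn1a were named for the size of this same change, which partly fixes that they cross. Over all 12541 genes, 65 crossed upward and 41 downward by the same limits. Of these 18 named genes, 12 were lower than control on day 6 and higher on day 12, a split that the naming also shapes.

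Among pluripotency-related genes, Tet1 moved by 2.87 (-1.51 on day 6, 1.35 on day 12), Pou3f1, a POU factor of the primed pluripotent state, by 2.84 (-0.80 and 2.04), and Nanog by 2.06 (-0.53 and 1.53). Among division genes, Cenpf moved by 1.83 (-1.24 and 0.58), Fbxo5 by 1.80 (-0.65 and 1.15), Cenpe by 1.55 (-0.94 and 0.61), Top2a by 1.46 (-0.81 and 0.66) and Ccna2 by 1.27 (-0.63 and 0.64). Nnat moved by 2.18 (-0.60 and 1.58), Mylpf, a fast muscle myosin light chain gene, by 1.78 (-0.69 and 1.09), Mns1 by 1.73 (-0.55 and 1.18) and Myb by 1.61 (-0.58 and 1.03).

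The other 6 of the named genes were higher than control on day 6 and lower on day 12. Pam moved by -2.41 (1.57 on day 6, -0.84 on day 12), Slc5a8 by -2.40 (1.07 and -1.32), Lgsn by -2.34 (1.07 and -1.27) and Rplp0, a ribosomal protein gene whose top values are the shared maximum, by -1.97 (0.91 and -1.06). Ppap2a moved by -1.76 (1.26 and -0.50) and Ppfia4 by -1.61 (1.04 and -0.57).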

How the results depend on the processing

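No paired analysis was possible because the labels give no replicate numbers and each arm has 1 library per day. The fit has 2 residual degrees of freedom, the reads behind each library are unknown, and no interval for counting error can be given, so the error of low signals, such as those of genes near 0 on day 6, is unknown. With a library left out, its arm kept 2 days and took the curve shared by the arms from the others; that the counts move is built into such fits, and beyond this the cause was not tested. Leaving out libraries for the list medians, and the motif TTTGAA, were added after seeing the data.

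Of the 91 named genes, none passed limma in the main fit, and none passed with another pseudocount, no filter, centred columns, other moderation or no shared curve. That no call changed therefore says nothing on how stable each change is. None changed direction with another pseudocount or centred columns. The filter, the moderation and the shared curve leave each estimate of the change as it was, so these settings could not alter its direction. With a mean of 100 or more, 78 were left to compare. In the fit of the 6 lincRNA-p21 and control libraries alone, 76 of the 91 passed, among 392 genes higher and 325 lower. That fit has 1 residual and 21.65 prior degrees of freedom, so its calls lean on the spread over all genes. All but the hairpin targets and Cdkn1a were named for the size of this same change, so the 76 are no independent result. With days 9 and 12 averaged against day 6, the change of Pou5f1 was 0.069 in place of -0.39. Genes at least 2-fold up and down numbered 197 and 146 with a pseudocount of 50, and 196 and 184 with days 9 and 12 averaged. With no shared curve, 72 genes rose and 17 fell in the lincRNA-p21 arm, against 722 and 529 in the control arm. For the lincRNA-p21 line minus the Hnrnpk line, 86 genes were 2-fold higher and 131 lower with a pseudocount of 50, 94 and 123 with days 9 and 12 averaged, and 147 lower with a mean of 100 or more, where fewer genes are tested. The median change of histone genes was -0.061 with a pseudocount of 50 and that of macrophage markers -0.26 with days 9 and 12 averaged.

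The split by arm followed its limits. With an arm called flat under 0.3, opposite moves numbered 83 up and 90 down, the control arm alone moved in 66 and 47, the lincRNA-p21 arm alone in 42 and 50, and both moved up with more in the control arm in 58. With flat under 0.7, opposite moves were 9 and 8. At 1.5-fold, the control arm alone moved in 432 up and 345 down, the lincRNA-p21 arm alone in 279 and 340, both with more in the control arm in 163 and 197, and both with more in the lincRNA-p21 arm in 158 and 151. With a pseudocount of 50, both moved with more in the control arm in 10 and 16 and with more in the lincRNA-p21 arm in 28 and 14, while among genes that went down 18 moved oppositely, 47 in the control arm alone and 51 in the lincRNA-p21 arm alone. With a pseudocount of 1, both moved down with more in the lincRNA-p21 arm in 64.

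Leaving out 1 library at a time gave these lowest and highest values. Genes called for the change of the difference ran between 0 and 404 (higher) and 0 and 333 (lower), and those past 2-fold between 325 and 1291 (up) and 295 and 1359 (down). In the lincRNA-p21 arm 6 to 2834 genes rose and 0 to 3187 fell, and in the control arm 405 to 3035 rose and 164 to 3427 fell. Between the lincRNA-p21 and Hnrnpk lines 0 to 155 passed higher and 0 to 158 lower, with 189 to 874 and 226 to 864 past 2-fold. List medians ran between 0.66 and 1.88 for pluripotency genes, 0.56 and 1.65 for mitosis, 0.36 and 1.30 for G1/S, -0.10 and 1.10 for the reprogramming factors, -0.22 and 0.52 for epithelial genes, -0.76 and 0.14 for fibroblast genes, -1.10 and 0.35 for contractile genes, -1.05 and 0.27 for senescence genes, -0.48 and 0.23 for interferon-stimulated genes and -0.33 and 0.10 for antigen presentation. They ran between -0.088 and 0.73 for glycolysis and hypoxia, -0.45 and 0.42 for oxidative phosphorylation, -0.45 and 0.41 for ribosomal proteins, -0.59 and -0.10 for cholesterol and fatty acid synthesis, -0.10 and 0.58 for the methylation machinery, -0.48 and 0.11 for histones, -0.97 and 1.09 for macrophage markers and -0.53 and 0.25 for adipocyte markers.

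The change of the difference took the other sign without 1 library in 21 named genes. Those higher with all libraries ran between -0.53 and 1.09 (Trp53cor1), -0.27 and 0.79 (Hnrnpk), -0.10 and 1.498 (Myc), -0.10 and 0.97 (Klf4), -0.068 and 0.15 (Sox2), -0.014 and 1.65 (Grhl2), -0.78 and 4.12 (Ndufa4l2), -0.47 and 6.35 (Utf1), -0.55 and 8.35 (Kctd12) and -0.32 and 3.53 (Myb). Those lower ran between -2.01 and 1.23 (Pou5f1), -2.30 and 0.30 (Krt6b), -2.26 and 0.20 (Col1a1), -2.88 and 0.050 (Actg2), -2.82 and 0.35 (Acta2), -1.60 and 0.043 (Fas), -1.42 and 0.10 (Dram1), -1.48 and 0.18 (Gdf15), -3.10 and 0.47 (Tnfrsf11b), -0.72 and 0.015 (Cdkn1a) and -3.88 and 0.70 (Crct1).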

Other observations

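Positional homeobox genes, which hold the regional identity of fibroblasts, fell in both arms: 35 of 40 in the lincRNA-p21 arm and 38 of 40 in the control arm (limma adjusted p under 0.05), by a median of 1.15 and 1.41. The change of their difference had a median of 0.12, and 0 of the 40 moved by 2-fold, beside 2.59% up and 2.35% down over all genes. Of 28 genes of cholesterol and fatty acid synthesis, 9 fell and 0 rose in the lincRNA-p21 arm, against 4 that fell and 6 that rose in the control arm. Over all genes 20.6% fell and 17.9% rose in the lincRNA-p21 arm, and 22.4% and 20% in the control arm. The median difference of the cholesterol and fatty acid genes was 0.19, 0.03 and -0.13 on days 6, 9 and 12. Of 28 interferon-stimulated genes 7 rose in the lincRNA-p21 arm and 9 in the control arm, beside 17.9% and 20% of all genes. The interferon-stimulated genes had a median change of the difference of -0.09, with 3 at least 2-fold down, beside 2.35% of all genes.

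In single histone genes the change of the difference went opposite ways, 1.53 for Hist1h2ap and -1.86 for Hist1h2bc, though both fell in the lincRNA-p21 arm. Hist1h2ap fell in both arms, with 3696, 192 and 183 in the lincRNA-p21 arm, against 7543, 208 and 126.5 in the control arm. Hist1h2bc had 1758.5, 569.5 and 637, against 522, 479 and 695, and fell by 1.45 under the lincRNA-p21 hairpin (limma adjusted p = 0.00232). Histone genes of a cluster are near-identical and can share reads. Medians of the change of the difference lay near 0 for antigen presentation (-0.07), neuronal (-0.08), oxidative phosphorylation (-0.03), ribosomal protein (-0.02) and integrated stress response genes (-0.10). The 7 early lineage genes tested, of 21 on the list, had a median of 0.63.

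Kctd12 had the largest change by size among genes where the arms moved in opposite directions, 3.90 (SE 1.15, limma adjusted p = 0.187), but not a steady one: 1.5, 291.5 and 56.5 in the lincRNA-p21 arm, against 239, 306.5 and 86.5 in the control arm.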
